A study of Homo sapiens with 12 samples.

Results

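SEC14L2, PLLP and GPR124 are 3 genes of T47D cells whose RNA was scarce in the ethanol vehicle and abundant after the synthetic progestin R5020. They were picked by hand for that strong induction, so the R5020 effect on them is described here and not tested. All 3, out of 55765 genes in the count tables, were among the 17727 genes with enough counts to test. T47D is an established luminal breast cancer line with abundant progesterone receptor, and all cultures were grown in insulin-containing medium with serum. Cells received either a control siRNA of nonspecific sequence (siCT) or an siRNA against PRMT1 (siPRMT1), a protein arginine methyltransferase, and then 10 nM R5020 or an equal volume of ethanol for 6 h. This gave 4 groups, siCT ethanol, siCT R5020, siPRMT1 ethanol and siPRMT1 R5020, each with 3 libraries labelled as biological replicates of this 1 line. The sample titles call the ethanol libraries time zero, whereas their treatment label gives ethanol for 6 h. The study asked whether progestin-driven expression needs PRMT1.

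The progesterone receptor is a ligand-activated transcription factor that, once bound by progestin, binds DNA and changes the transcription of nearby and distant genes. SEC14L2, also called supernatant protein factor or tocopherol-associated protein, carries a CRAL-TRIO lipid pocket, binds vitamin E and phospholipids, and stimulates the squalene monooxygenase step of cholesterol synthesis. PLLP, plasmolipin, is a tetraspan membrane protein of the MARVEL family, known from myelin and from the apical membranes of epithelia. GPR124, now named ADGRA2, is an adhesion G protein-coupled receptor that works with the anchored protein RECK to let WNT7A and WNT7B signal through Frizzled receptors, best known in the vessels of the brain.

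The DNA upstream of the SEC14L2 and PLLP start sites is shown because both genes stood far higher in every R5020 library than in any ethanol library. The windows cover the 250 bases before each RefSeq start in GRCh38.p14, read 5′ to 3′ on the gene's strand. For GPR124 no promoter is shown. Capitals mark GC boxes (GGGCGG) and, in PLLP, 1 forkhead core (TGTTTAC).

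SEC14L2, chr22:30396768-30397017, plus strand: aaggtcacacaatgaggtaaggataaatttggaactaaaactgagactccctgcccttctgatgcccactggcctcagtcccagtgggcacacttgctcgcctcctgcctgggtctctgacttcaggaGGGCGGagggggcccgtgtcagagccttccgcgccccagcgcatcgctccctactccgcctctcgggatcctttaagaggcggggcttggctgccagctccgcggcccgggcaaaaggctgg

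PLLP, chr16:57284673-57284922, minus strand: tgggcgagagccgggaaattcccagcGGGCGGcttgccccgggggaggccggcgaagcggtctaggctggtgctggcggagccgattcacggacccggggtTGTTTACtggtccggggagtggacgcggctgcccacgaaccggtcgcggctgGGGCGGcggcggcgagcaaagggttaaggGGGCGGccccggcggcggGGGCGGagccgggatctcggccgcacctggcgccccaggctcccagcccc

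The PLLP window was the richer in GC, at 76% with 32 CpG dinucleotides, and 91.3% of all 35116 promoters in the table had a lower GC content. SEC14L2 had 62.4% GC and 13 CpG dinucleotides, near the medians of 58% and 11 over all promoters. A GC box occurred 4 times in PLLP, beginning 224, 97, 68 and 50 bases before the start, and 1 time in SEC14L2, 122 bases before it, against at least 1 in 42.6% of all promoters. The forkhead core, bound by the FOXA family, occurred 149 bases before the PLLP start and not in SEC14L2, and 2.98% of promoters held it. Neither window held the progesterone or glucocorticoid receptor full site GNACANNNTGTNC (0.327% of promoters), the shorter receptor motif TGTTCT (12.4%), the estrogen receptor site GGTCANNNTGACC (0.0399%), the STAT5 site TTCNNNGAA (6.57%) or TATAAA (10.7%). Both strands were searched, the shorter motif can overlap a full site and run past its end, and a match is a match of letters, not a measured binding site.

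Libraries held 26783525 to 34120937 counts. PRMT1, the knockdown target, was at 37.5 ± 7.83 CPM (counts scaled per 1e6 by TMM, mean ± SD, n = 3) in siCT ethanol and 8.23 ± 0.268 in siPRMT1 ethanol, and at 43.0 ± 6.89 in siCT R5020 and 7.08 ± 0.258 in siPRMT1 R5020. The progesterone receptor gene PGR itself was 2.18-fold higher in siPRMT1 than in siCT cells in ethanol (edgeR adjusted p = 0.00147) and 1.63-fold higher in R5020 (edgeR adjusted p = 0.0212). A pair of libraries stood apart from the rest: siCT ethanol replicate 3 and siCT R5020 replicate 1 had 59.3% and 52.4% of their counts on mitochondrially encoded genes, against 31.3% to 38.3% in the other 10. Both are siCT libraries, so values without them are also given beside the comparisons of the 3 genes between siRNAs. All comparisons below come from 1 edgeR quasi-likelihood fit of the 12 libraries, with p-values adjusted over all 17727 genes by Benjamini-Hochberg and called at 0.05.

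SEC14L2 lay between 0.506 and 1.61 CPM in ethanol and between 16.1 and 22.7 CPM after R5020. In these bulk samples a change in the number of cells that make an RNA and a change in RNA per cell cannot be told apart. Its raw counts in replicates 1, 2 and 3 were 59, 39 and 13 in siCT ethanol and 29, 19 and 26 in siPRMT1 ethanol. With R5020 they were 399, 770 and 675 in siCT and 672, 560 and 719 in siPRMT1. On the CPM scale siCT ethanol read 1.61, 1.15 and 0.711, siPRMT1 ethanol 0.792, 0.506 and 0.707, siCT R5020 16.1, 21.2 and 21.1, and siPRMT1 R5020 21.7, 20.4 and 22.7. Every R5020 library lay far above every ethanol library, while the siCT and siPRMT1 ranges overlapped within each treatment. The low siCT R5020 value and the low siCT ethanol value were those of the pair that stood apart.

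PLLP separated the siRNA groups after R5020 but not in ethanol. Replicates 1, 2 and 3 held 114, 75 and 89 counts in siCT ethanol and 81, 85 and 91 in siPRMT1 ethanol, then 1434, 1694 and 1434 in siCT R5020 and 762, 557 and 650 in siPRMT1 R5020. As CPM these were 3.11, 2.21 and 4.87 in siCT ethanol, 2.21, 2.26 and 2.48 in siPRMT1 ethanol, 57.9, 46.7 and 44.8 in siCT R5020, and 24.6, 20.3 and 20.5 in siPRMT1 R5020. The siPRMT1 R5020 libraries formed a group of their own, above all ethanol libraries and below all siCT R5020 libraries. In ethanol the siPRMT1 and siCT ranges overlapped. Here the pair that stood apart held the highest value of its group in each case, 4.87 and 57.9 CPM.

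GPR124 had few reads in ethanol, 30, 28 and 24 counts in siCT and 44, 49 and 58 in siPRMT1 cells. R5020 libraries held 591, 570 and 474 counts in siCT and 381, 305 and 351 in siPRMT1. In CPM the siCT ethanol values were 0.818, 0.826 and 1.31, the siPRMT1 ethanol values 1.20, 1.30 and 1.58, the siCT R5020 values 23.9, 15.7 and 14.8, and the siPRMT1 R5020 values 12.3, 11.1 and 11.1. After R5020 all siPRMT1 values lay below all siCT values, and in ethanol the groups overlapped at 1.31 CPM, the siCT library with the high mitochondrial share. The siCT R5020 value of 23.9 CPM came from the other library of that pair.

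**Figure D1:**
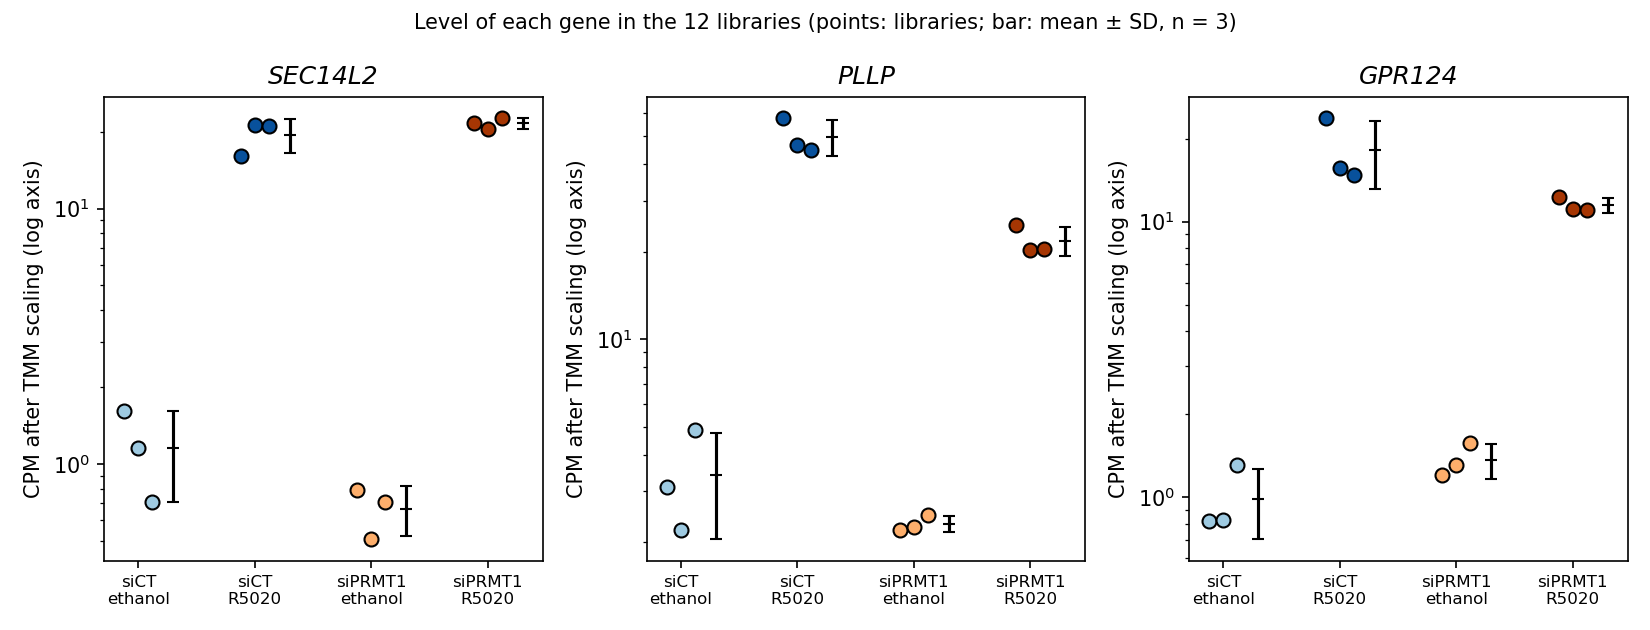
CPM of SEC14L2, PLLP and GPR124 in each of the 12 libraries on a log axis, by group, with replicates 1, 2 and 3 from left to right and bars for the mean ± SD (n = 3). R5020 libraries lie above ethanol libraries for all 3 genes, and the siPRMT1 R5020 points lie below siCT R5020 for PLLP and GPR124 but not for SEC14L2.

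Group means ordered the same way for PLLP and GPR124 at the top and differently for SEC14L2. PLLP averaged 49.8 ± 7.08 CPM in siCT R5020 (SD, n = 3), 21.8 ± 2.44 in siPRMT1 R5020, 3.40 ± 1.35 in siCT ethanol and 2.32 ± 0.140 in siPRMT1 ethanol. GPR124 averaged 18.1 ± 4.98 CPM in siCT R5020, 11.5 ± 0.706 in siPRMT1 R5020, 1.36 ± 0.195 in siPRMT1 ethanol and 0.985 ± 0.283 in siCT ethanol. For SEC14L2 the 2 R5020 groups, 21.6 ± 1.13 CPM in siPRMT1 and 19.5 ± 2.92 in siCT, did not differ beyond their spread, and the ethanol means were 1.16 ± 0.449 in siCT and 0.668 ± 0.147 in siPRMT1. In ethanol the ranges of the siRNA groups overlapped for all 3 genes.

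The R5020 effect, which chose the genes, was 16.2-fold for SEC14L2, 15.0-fold for PLLP and 19.0-fold for GPR124 in siCT cells. They stood at ranks 56, 61 and 50 of 17727 genes from the largest increase, where 7.59% of all genes were called higher and 13% were called in either direction. In siPRMT1 cells the effect was 32.2-fold for SEC14L2, 9.40-fold for PLLP and 8.42-fold for GPR124, at ranks 35, 118 and 134, where 9.3% of genes were called higher and 15.4% either way. R5020 and ethanol libraries did not overlap for any of the 3, as for 20.8% of all genes in siCT and 53.1% in siPRMT1 cells. The order of the 3 point values differed between siRNAs: GPR124 had the largest fold in siCT cells and the smallest in siPRMT1 cells. In siCT cells the 95% intervals overlapped, at 11.2 to 23.3 for SEC14L2, 10.4 to 21.6 for PLLP and 13.1 to 27.6 for GPR124. In siPRMT1 cells those of PLLP (6.58 to 13.4) and GPR124 (5.96 to 11.9) overlapped. Without the pair that stood apart PLLP, at 17.1-fold, passed SEC14L2, at 15.2-fold, in siCT cells. The authors' deposited table gave log2 changes of 3.57, 3.48 and 3.71 for SEC14L2, PLLP and GPR124 in siCT cells and 4.78, 3.15 and 2.96 in siPRMT1 cells, the same order within each siRNA.

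In ethanol, SEC14L2 was lower in siPRMT1 than in siCT cells, and neither PLLP nor GPR124 passed the test. This contrast did not choose the genes, but it shares the ethanol libraries with the one that did, so its values are not independent of that choice. SEC14L2 fell by 0.85 ± 0.27 on the log2 scale (SE, edgeR adjusted p = 0.0320), a 1.80-fold decrease. Its groups overlapped in range. The log2 difference was -0.52 ± 0.24 for PLLP (edgeR adjusted p = 0.113) and 0.52 ± 0.26 for GPR124 (edgeR adjusted p = 0.142). Thus 1 of 3 genes was called where 32.8% of all genes were, 19.2% lower and 13.6% higher, so the count is near the background. None of the 3 had groups that did not overlap, against 44.7% of all genes.

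The ethanol calls rested on few reads and on single libraries. The SEC14L2 call was lost without siCT ethanol replicate 1 (log2 -0.54, edgeR adjusted p = 0.161), without siPRMT1 ethanol replicate 2 (-0.68, edgeR adjusted p = 0.125) or without siPRMT1 ethanol replicate 3 (-0.89, edgeR adjusted p = 0.0750), and with the pair that stood apart removed it was -1.04 (edgeR adjusted p = 0.00261). PLLP passed without siCT ethanol replicate 2 (-0.76, edgeR adjusted p = 0.0127) but was -0.14 without siCT ethanol replicate 3 and -0.19 without the pair (edgeR adjusted p = 0.372). GPR124 passed without siCT ethanol replicate 3 (0.79, edgeR adjusted p = 0.0457) and without the pair (0.74, edgeR adjusted p = 0.00814), where 44.5% of genes were called. The authors' deposited table gave adjusted p = 0.229, 0.338 and 0.315 for SEC14L2, PLLP and GPR124 in this contrast.

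After R5020, PLLP and GPR124 were lower in siPRMT1 than in siCT cells, while SEC14L2 did not pass the test. This contrast did not choose the genes, but it shares the R5020 libraries in which they were picked as high. Its values are thus not independent of that choice. PLLP fell by 1.19 ± 0.21 on the log2 scale, 2.28-fold (edgeR adjusted p = 0.00193), and was lower in 3 of 3 siPRMT1 libraries than in any siCT library. GPR124 fell by 0.65 ± 0.20, 1.57-fold (edgeR adjusted p = 0.0315), again with no overlap between groups. SEC14L2 differed by 0.15 ± 0.20 (edgeR adjusted p = 0.620), and the 95% interval ran from -0.29 to 0.58. Background for these counts, 2 of 3 genes called, was 25.7% of all genes called, 14.2% lower and 11.5% higher, and 51.5% of all genes had groups that did not overlap.

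The PLLP decrease was called in all 12 fits that left out 1 library, between -1.28 and -1.07, and at -1.06 without the pair (edgeR adjusted p = 0.000102). GPR124 depended on single libraries: its call was lost without siCT R5020 replicate 1, the library with the high mitochondrial share (-0.41, edgeR adjusted p = 0.138). Leaving out siPRMT1 R5020 replicate 1, 2 or 3 gave -0.70, -0.63 and -0.63 (edgeR adjusted p = 0.0675, 0.106 and 0.100). Without the pair GPR124 was at -0.40 and called (edgeR adjusted p = 0.0197), where 38.9% of genes were. In the authors' deposited table PLLP was at -1.13 (adjusted p = 8.79e-11), GPR124 at -0.60 (adjusted p = 0.0101) and SEC14L2 at 0.16 (adjusted p = 0.495).

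The question of the design, whether the R5020 effect differed between siRNAs, is read by the interaction, and none of the 3 genes passed. The interaction is the difference of both R5020 effects and shares all its libraries with the contrasts for which the genes were picked, so its values are not independent of that choice. The fold of SEC14L2 was larger in siPRMT1 cells by 0.99 ± 0.34 on the log2 scale (unadjusted p = 0.0120, edgeR adjusted p = 0.766). For PLLP the difference was -0.67 ± 0.32 (unadjusted p = 0.0546, edgeR adjusted p = 1.00), and for GPR124 it was -1.17 ± 0.33 (unadjusted p = 0.00345, edgeR adjusted p = 0.478). Few genes passed at all: 14 of 17727, or 0.079% (0.0451% higher and 0.0338% lower), with 720 genes, 4.06%, under an unadjusted p of 0.05. The 95% intervals were 0.26 to 1.73 for SEC14L2, -1.36 to 0.02 for PLLP and -1.88 to -0.46 for GPR124. Without the pair of libraries GPR124 passed at -1.13 ± 0.22 (edgeR adjusted p = 0.0404), where 0.779% of genes did, SEC14L2 was at 1.08 (edgeR adjusted p = 0.0900) and PLLP at -0.87 (edgeR adjusted p = 0.106).

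**Figure D2:**
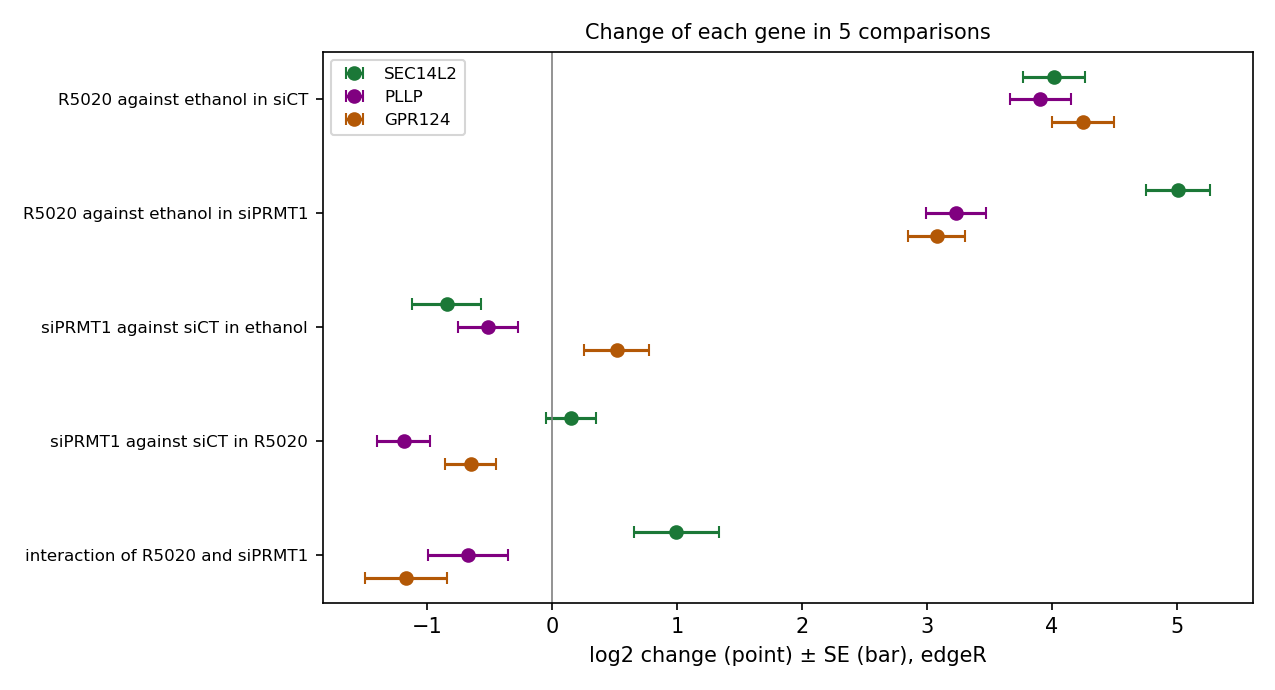
Log2 changes of SEC14L2, PLLP and GPR124 in the 5 comparisons, as points with bars of ± 1 SE from the edgeR fit of all 12 libraries. For siPRMT1 against siCT in R5020, PLLP and GPR124 lie at -1.19 and -0.65, while the SEC14L2 bar crosses 0.

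Dividing the counts of 1 gene by those of another in the same library removes the library's depth and scaling, so these ratios do not depend on normalisation. With 3 libraries against 3 the smallest two-sided p an exact permutation test can give is 0.1, so no ratio could pass 0.05. The log2 ratio of SEC14L2 to PLLP counts was -1.85, -1.14 and -1.09 in siCT R5020 and -0.18, 0.01 and 0.15 in siPRMT1 R5020. These groups did not overlap, and the means differed by 1.35 (exact permutation p = 0.1), or by 1.10 without the pair. In ethanol the same ratio overlapped between siRNAs, with a difference of -0.26 (exact permutation p = 0.8) and of -0.87 without siCT ethanol replicate 3.

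For SEC14L2 over GPR124 the R5020 libraries gave -0.57, 0.43 and 0.51 in siCT and 0.82, 0.88 and 1.03 in siPRMT1. All 3 siPRMT1 values were above all siCT values, by 0.78 on average (exact permutation p = 0.1) and by 0.44 without the pair. In ethanol the ratio differed by -1.23 the other way, with overlapping groups (exact permutation p = 0.2). Without siCT ethanol replicate 3 that difference was -1.77. PLLP over GPR124 differed by -0.97 in ethanol and by -0.56 in R5020 (exact permutation p = 0.1 in each), with no overlap in either treatment. The count of PLLP per count of GPR124 was thus lower in siPRMT1 than in siCT libraries with and without progestin.

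**Figure D3:**
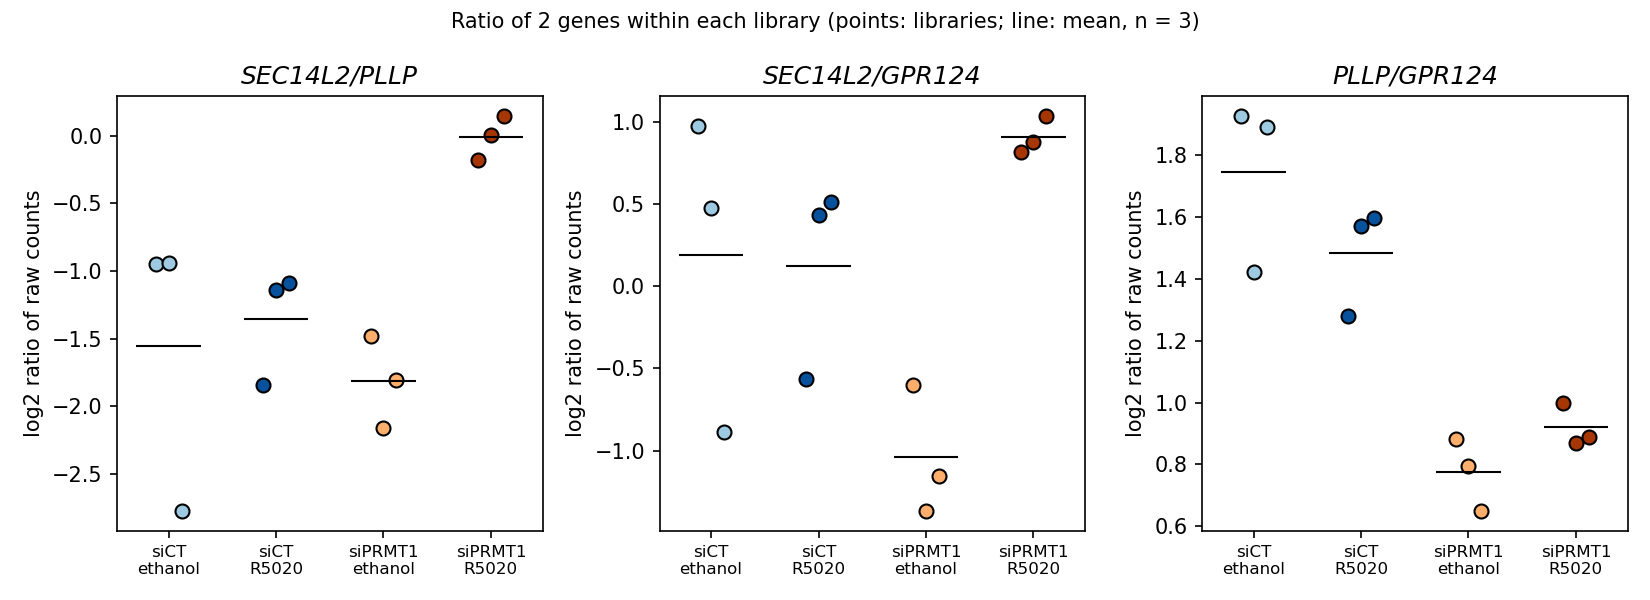
Log2 ratio of raw counts within each library for SEC14L2 over PLLP, SEC14L2 over GPR124 and PLLP over GPR124, by group, with replicates 1, 2 and 3 from left to right and lines for group means (n = 3). In R5020 the siPRMT1 points lie above siCT for both SEC14L2 ratios and below it for PLLP over GPR124.

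Across the 12 libraries the 3 genes tracked each other, with Pearson r of 0.942 for SEC14L2 and PLLP, 0.943 for SEC14L2 and GPR124 and 0.975 for PLLP and GPR124 on log2 CPM (prior count 2). The libraries share the R5020 split that chose the genes, so a high r was given by the choice. Of the tested genes that averaged 5 CPM or more, the 5 nearest to SEC14L2 were HOMER2, a postsynaptic scaffold protein, the transcription factor CEBPD, SYBU, which links vesicles to kinesin, the microtubule end-binding MAPRE3 and the RNA methylation reader YTHDF1, with r from 0.991 to 0.995. PLLP was nearest to the membrane-type metalloproteinase MMP15, the MARVEL protein CMTM7, the phosphatidylserine decarboxylase PISD, SRGAP2 and the Frizzled receptor FZD5, with r from 0.986 to 0.993. GPR124 was nearest to the mitochondrial glutamate carrier SLC25A18, the kinase SGK1, CCDC88C, IQCB1 and the S-adenosylmethionine synthase MAT2A, with r from 0.988 to 0.995.

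These neighbours in pattern differed in how their R5020 effect compared between siRNAs. All 5 nearest SEC14L2 had the larger log2 R5020 change in siPRMT1 cells, for example 2.57 in siCT and 3.22 in siPRMT1 for CEBPD and 2.17 and 2.50 for HOMER2. All 5 nearest GPR124 had the larger change in siCT cells, among them SGK1 at 6.49 and 5.75 and SLC25A18 at 3.40 and 2.75. Of the 5 nearest PLLP, 4 were larger in siCT cells, as MMP15 at 2.89 and 2.27, and CMTM7 was not, at 2.72 and 2.92. Since likeness was computed on the same libraries, this order follows from the choice and carries no test. The lists were unstable: ranking by Spearman kept 0, 2 and 1 of 5 for SEC14L2, PLLP and GPR124, and leaving out the pair kept 3, 1 and 2.

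**Figure D4:**
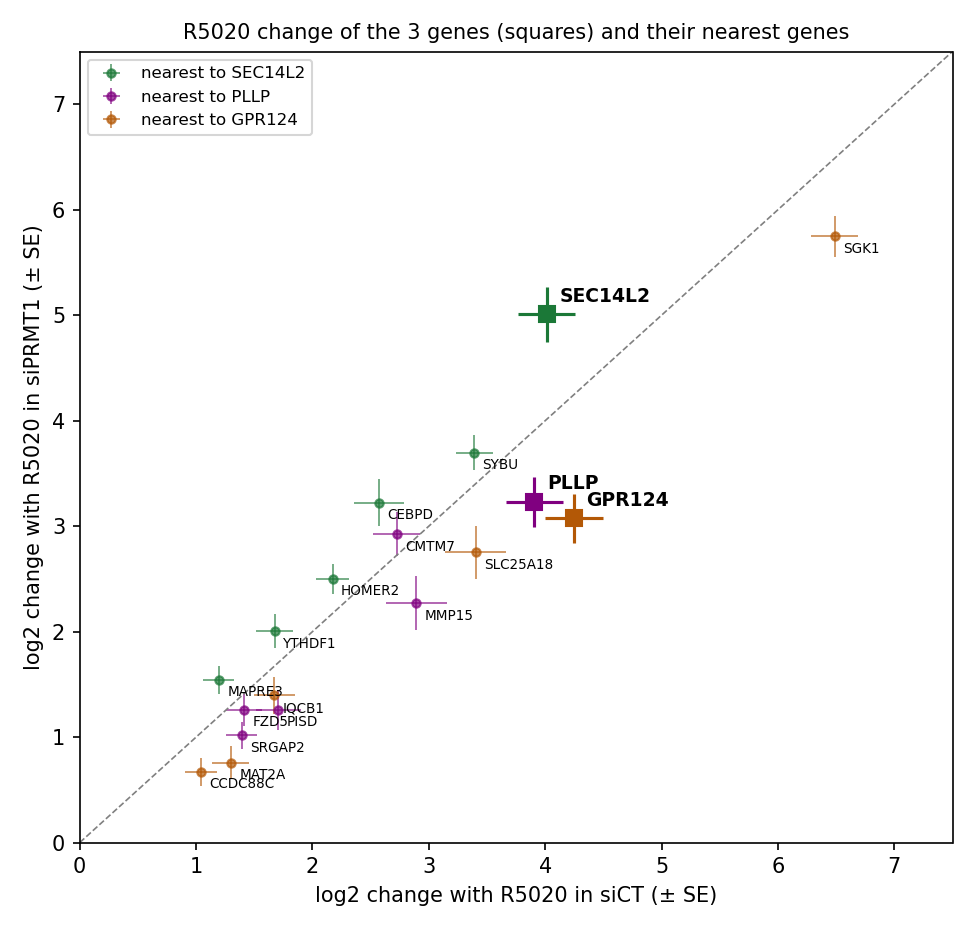
Log2 R5020 change in siPRMT1 cells against that in siCT cells for SEC14L2, PLLP and GPR124 and the 5 genes nearest to each by Pearson r over 12 libraries, with bars of ± 1 SE and a dashed diagonal of equal change. SEC14L2 and its 5 nearest genes lie above the diagonal, and GPR124 and its 5 lie below it.

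The wider families were read from lists of known relatives and partners, and each list leaves out SEC14L2, PLLP and GPR124 themselves. For SEC14-like and CRAL-TRIO proteins, with 15 tested out of 22 listed, R5020 raised 2 and lowered 1 in siCT cells, where 7.59% and 5.43% of all genes did. The risers were SEC14L1, 1.67-fold (edgeR adjusted p = 0.00586), and TRIO, 1.63-fold (edgeR adjusted p = 0.0182), and SEC14L5 fell 1.66-fold (edgeR adjusted p = 0.0212). The median log2 change of the 15 was 0.19, against -0.04 over all genes. Without the pair that stood apart 2 rose and 4 fell. SEC14L3 and SEC14L4 had 0 counts in all libraries.

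Of these 15, R5020 raised 3 and lowered 3 in siPRMT1 cells, with 9.3% and 6.08% of all genes called, and 5 and 4 without the pair. KALRN, a relative of TRIO, fell by 0.88 on the log2 scale (edgeR adjusted p = 0.00116). Between siRNAs, KALRN was higher in siPRMT1 cells by 1.16 in ethanol (edgeR adjusted p = 0.000230) and by 0.75 in R5020 (edgeR adjusted p = 0.00486), and SEC14L6, which lies near SEC14L2, was lower in ethanol at -1.48 (edgeR adjusted p = 0.0288). SEC14L6 was near the floor, at 0.319 ± 0.111 CPM in siCT ethanol and 0.108 ± 0.0526 in siPRMT1 ethanol (SD, n = 3). In all, 2 were higher and 2 lower in ethanol, or 1 and 0 with scaling by library totals, where 13.6% and 19.2% of all genes were. In R5020 2 were higher and 1 lower (4 and 2 without the pair), where 11.5% and 14.2% were. These counts are near the background, with medians of 0.27 and 0.14 against -0.07 and -0.03 over all genes.

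Genes of vitamin E handling and of squalene use, the processes that SEC14L2 takes part in, gave 0 edgeR calls for R5020 in either siRNA among 10 tested of 12 listed. At an unadjusted p under 0.05, 1 was higher and 1 lower in siCT cells and 2 were higher in siPRMT1 cells, while DESeq2 called 1 higher in siCT cells and limma voom called 1 higher in siCT cells and 6 higher and 2 lower in siPRMT1 cells. SQLE, the squalene monooxygenase, was at a log2 change of 0.43 ± 0.26 in siCT cells (edgeR adjusted p = 0.344) and 0.48 ± 0.26 in siPRMT1 cells (edgeR adjusted p = 0.276). Without the pair 4 genes rose in siCT and 5 in siPRMT1 cells by edgeR. The absence of calls thus holds for the main edgeR fit of the 12 libraries and not for every method. Between siRNAs there were calls. In ethanol the lanosterol synthase LSS fell by 0.97 on the log2 scale (edgeR adjusted p = 0.00395) and the lipoprotein receptor SCARB1 by 1.02 (edgeR adjusted p = 0.0119). The transporter ABCG1 also fell, by 1.02 (edgeR adjusted p = 0.0125), while the sterol exporter ABCA1 was 1.06 higher (edgeR adjusted p = 0.0231). In all, 1 gene was higher and 3 were lower in ethanol, where 13.6% and 19.2% of all genes were, and 1 and 2 in R5020, where 11.5% and 14.2% were. Most of these counts are near the background, and without the pair 4 were higher and 3 lower in ethanol and 3 and 2 in R5020.

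Among PLLP's relatives of the MARVEL and tetraspan vesicle families, CMTM7 had the largest R5020 change of the 20 tested. With siCT it averaged 14.3 ± 4.51 CPM in ethanol and 93.7 ± 10.3 in R5020, and with siPRMT1 7.72 ± 0.0761 and 58.6 ± 5.52 (SD, n = 3). It rose 6.60-fold in siCT cells (edgeR adjusted p = 1.15e-06) and 7.59-fold in siPRMT1 cells (edgeR adjusted p = 5.94e-07), and was lower in siPRMT1 than in siCT cells in ethanol (log2 -0.88, edgeR adjusted p = 0.00572) and R5020 (-0.68, edgeR adjusted p = 0.0210). In all, 2 of 20 tested (26 listed) rose and 1 fell in siCT cells, near the 7.59% and 5.43% of all genes that did. In siPRMT1 cells 5 rose, where 9.3% of all genes did, and edgeR called 0 lower (1 at an unadjusted p under 0.05, 0 by DESeq2 and 3 by limma voom). MARVELD1 was the other riser in siCT cells, at 0.74 (edgeR adjusted p = 0.00538). Without the pair 4 rose in siCT cells.

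In siPRMT1 against siCT cells more of this family were called lower than higher: in ethanol 9 of 20 fell and 2 rose, where 19.2% and 13.6% of all genes did, and in R5020 6 fell and 2 rose, where 14.2% and 11.5% did. The tight junction protein occludin (OCLN) fell by 1.14 on the log2 scale in ethanol (edgeR adjusted p = 0.00393) and by 1.07 in R5020 (edgeR adjusted p = 0.00701), and MAL2, a transcytosis protein, was higher by 1.11 (edgeR adjusted p = 0.00342) and 1.07 (edgeR adjusted p = 0.00506). The median was -0.57 in ethanol and -0.30 in R5020, against -0.07 and -0.03 over all genes, and without the pair 10 fell in ethanol and 4 rose. Scaling by library totals alone moved the median of all genes by 0.18 in ethanol and left 5 of the family lower there.

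Of the other adhesion G protein-coupled receptors, edgeR called 0 higher with R5020 in siCT cells (1 at an unadjusted p under 0.05, and 1 by DESeq2 or limma voom), and 2 of 16 tested (32 listed) fell, where 5.43% of all genes did: the latrophilin LPHN2, 2.26-fold (edgeR adjusted p = 0.0127), and EMR1, 2.26-fold (edgeR adjusted p = 0.0479). EMR1 was low, at 0.703 ± 0.226 CPM in siCT ethanol and 0.309 ± 0.0773 in siCT R5020 (SD, n = 3). In siPRMT1 cells 1 rose and 3 fell (2 and 6 without the pair), where 9.3% and 6.08% of all genes did, and GPR110 was the riser at 1.04 (edgeR adjusted p = 0.00577). CD97, a leukocyte and epithelial adhesion receptor, was lower in siPRMT1 cells at a log2 difference of -1.52 in ethanol (edgeR adjusted p = 0.00135) and of -1.53 in R5020 (edgeR adjusted p = 0.00196). Over the family 2 were higher and 5 lower in ethanol, where 13.6% and 19.2% of all genes were, and 1 and 4 in R5020 (3 and 4 without the pair), where 11.5% and 14.2% were. The ethanol split turned to 6 higher and 3 lower without the pair, so it has no settled direction. GPR123, the close relative of GPR124, had 20 counts over all 12 libraries and was not tested.

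WNT7 signal reception, the known role of GPR124, was only in part expressed here. RECK, its partner, had 1 count over 12 libraries and WNT7A had 12, while the ligand WNT7B was tested. WNT7B rose 1.62-fold with R5020 in siCT cells (edgeR adjusted p = 0.00786) and 1.73-fold in siPRMT1 cells (edgeR adjusted p = 0.00289). Of the Frizzled receptors, FZD5 rose 2.66-fold (edgeR adjusted p = 3.08e-05) and FZD1 2.31-fold (edgeR adjusted p = 0.000187) in siCT cells, and FZD4 fell 2.12-fold (edgeR adjusted p = 0.00321). In all, 3 of 15 tested (19 listed) rose and 1 fell in siCT cells, and 4 rose in siPRMT1 cells. Over all genes 7.59% rose and 5.43% fell in siCT cells, and 9.3% rose and 6.08% fell in siPRMT1 cells. EdgeR called 0 lower in siPRMT1 cells, with 0 at an unadjusted p under 0.05 and 0 by DESeq2, but 3 by limma voom and 3 without the pair.

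The coreceptors were lower in siPRMT1 than in siCT cells in both treatments. LRP6 fell by 1.19 on the log2 scale in ethanol (edgeR adjusted p = 0.00541) and by 0.86 in R5020 (edgeR adjusted p = 0.0308). LRP5 fell by 1.16 (edgeR adjusted p = 0.0175) and by 1.03 (edgeR adjusted p = 0.0356). Of the 15 genes 6 were lower in ethanol and 3 in R5020, and 0 were higher by edgeR in either, with 0 at an unadjusted p under 0.05, 0 by DESeq2 and, in R5020, 1 by limma voom. Without the pair 5 were lower in ethanol and 4 in R5020, and 1 was higher in R5020. With library totals 4 were lower in ethanol. Of all genes 19.2% were lower in ethanol and 14.2% in R5020, so the R5020 count is near the background, and the medians of the list were -0.34 and -0.17. Known beta-catenin target genes, with 7 of 12 tested, moved in both directions: with R5020 in siCT cells LEF1 rose 9.90-fold (edgeR adjusted p = 2.48e-08) and NKD1 6.59-fold (edgeR adjusted p = 0.00367), while RNF43 fell 2.79-fold (edgeR adjusted p = 3.48e-05). NKD1 was near the floor, at 0.121 ± 0.0867 CPM in siCT ethanol and 0.682 ± 0.392 in siCT R5020 (SD, n = 3). AXIN2 had 65 counts in all and was not tested.

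In siPRMT1 cells LEF1 rose 4.62-fold and NKD1 3.54-fold with R5020, and RNF43 fell 3.94-fold (edgeR adjusted p = 2.42e-07, 0.00356 and 1.67e-06). The interaction for LEF1 was -1.10 ± 0.20, with edgeR adjusted p = 0.0875. LEF1 stood higher in siPRMT1 cells in ethanol, by 1.29 (edgeR adjusted p = 7.84e-05), and by 0.19 in R5020 (edgeR adjusted p = 0.302). RNF43 was higher in siPRMT1 cells in both treatments, by 1.70 (edgeR adjusted p = 1.93e-05) and 1.20 (edgeR adjusted p = 0.000354). Of these 7 genes 3 were higher and 1 lower in ethanol (3 and 2 without the pair), where 13.6% and 19.2% of all genes were. In R5020, where 11.5% and 14.2% of all genes were, 2 were higher and 0 lower, with 0 lower at an unadjusted p under 0.05, 0 by DESeq2 and 3 by limma voom. The edgeR interaction called 0 genes in any of the 6 lists, with at most 2 per list and direction at an unadjusted p under 0.05, and at most 1 by DESeq2, by limma voom or without the pair.

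**Figure D5:**
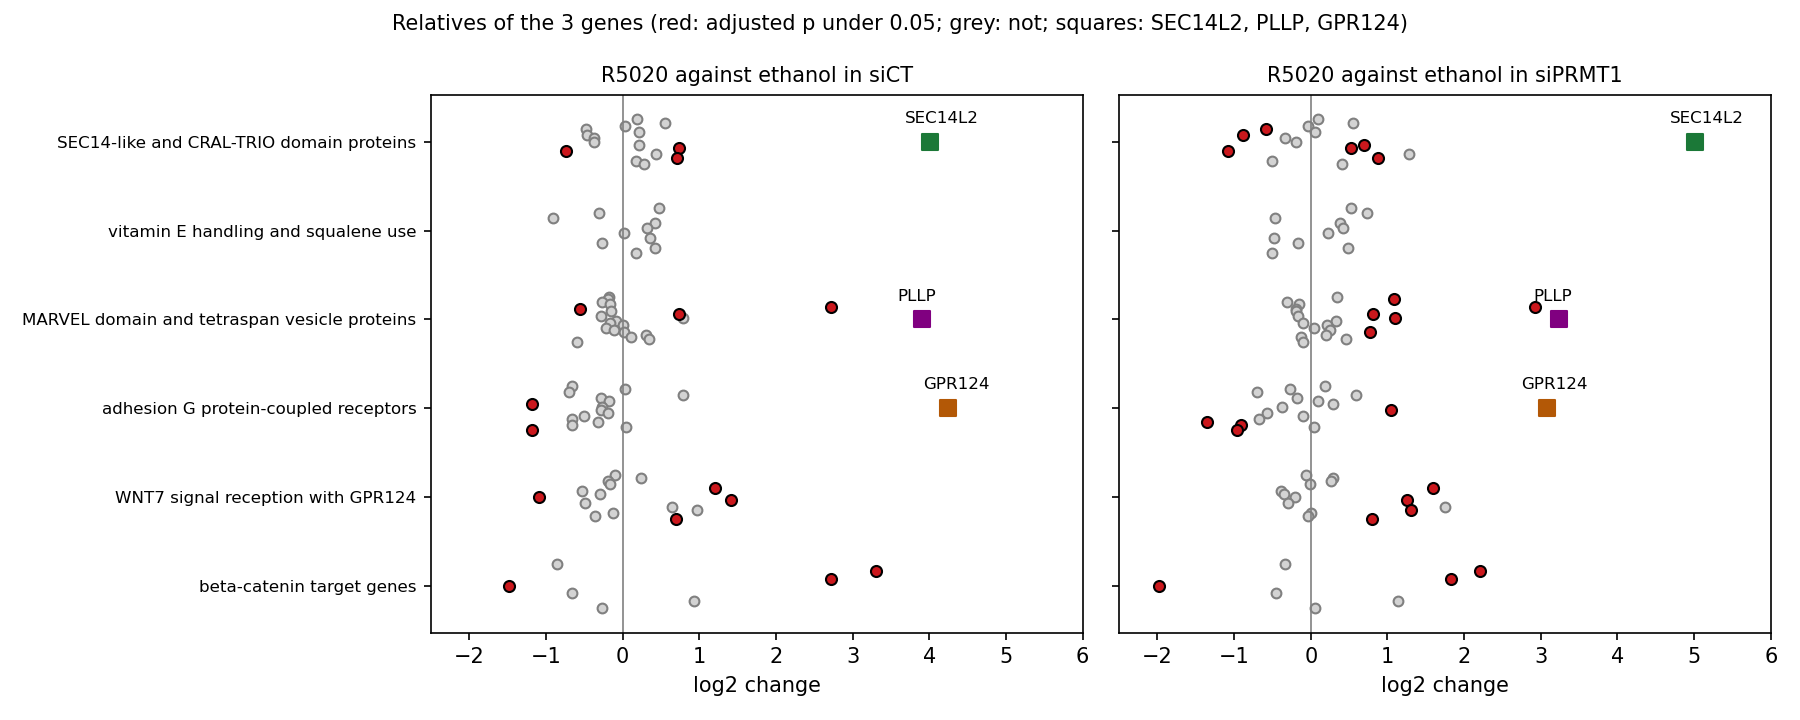
Log2 R5020 changes in siCT and siPRMT1 cells for the genes of the 6 lists, 1 point per gene and list, with called genes in red, other genes in grey, and SEC14L2, PLLP and GPR124 as squares beside their families. CMTM7 stands apart in the MARVEL list and LEF1 and NKD1 among the beta-catenin targets, all short of the square of SEC14L2 in the same panel. NKD1 was low, at 0.121 CPM in siCT ethanol and 0.559 in siPRMT1 ethanol.

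The genes beside the 3 in the genome rose with R5020 by at most 1.65 on the log2 scale. Of the 5 protein-coding neighbours on each side in RefSeq order (GRCh38.p14), 21 of 30 were tested, 5 rose in siCT cells and 7 in siPRMT1 cells, where 7.59% and 9.3% of all genes did. EdgeR called 0 of them lower, with 1 in siCT and 0 in siPRMT1 cells at an unadjusted p under 0.05 and 0 by DESeq2 or limma voom. On chromosome 16, ARL2BP, next to PLLP, rose by 1.32 on the log2 scale in siCT (edgeR adjusted p = 0.00368) and 0.94 in siPRMT1 cells (edgeR adjusted p = 0.0241). Beside GPR124, on chromosome 8, the repressor ZNF703 rose by 1.25 (edgeR adjusted p = 0.000567) and 1.65 (edgeR adjusted p = 5.15e-05). Around SEC14L2, on chromosome 22, none of the 7 tested neighbours was called in siCT cells, and TBC1D10A rose by 1.12 (edgeR adjusted p = 0.00444) and CASTOR1 by 1.00 (edgeR adjusted p = 0.0393) in siPRMT1 cells.

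The remaining neighbours that rose were CPNE2 (log2 0.79, edgeR adjusted p = 0.0428, then 1.35, edgeR adjusted p = 0.00413), RSPRY1 (0.42, edgeR adjusted p = 0.0365, then 0.43, edgeR adjusted p = 0.0273) and RAB11FIP1 (0.54, edgeR adjusted p = 0.0344, then 0.52, edgeR adjusted p = 0.0366), in siCT and siPRMT1 cells. In ethanol 6 of the 21 were lower and 1 was higher in siPRMT1 than in siCT cells, where 19.2% and 13.6% of all genes were, or 7 and 4 without the pair, where 44.5% of all genes were called. CPNE2 fell by 1.86 on the log2 scale (edgeR adjusted p = 0.000437), CCDC157 by 0.78 (edgeR adjusted p = 0.0136), RNF215 by 0.99 (edgeR adjusted p = 0.0282), SEC14L6, NLRC5 by 0.83 (edgeR adjusted p = 0.0202) and ERLIN2 by 0.96 (edgeR adjusted p = 0.0267), and ZNF703 was 0.93 higher (edgeR adjusted p = 0.00363). In R5020, CPNE2 was at -1.31 (edgeR adjusted p = 0.00247) and ZNF703 at 1.32 (edgeR adjusted p = 0.000568), and no other neighbour was called, against 5 higher and 2 lower without the pair.

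Each of the 3 genes overlaps a gene on the other strand in GENCODE 29, and the strand setting of the counting is not given in the sources used here, so shared reads cannot be told apart. PLLP overlaps ARL2BP (348 to 3303 counts per library), GPR124 overlaps BRF2 (156 to 521 counts), and SEC14L2 overlaps RNF215 (22 to 66 counts). Against those ranges, SEC14L2 held 13 to 59 counts in the ethanol libraries, PLLP 75 to 114 and GPR124 24 to 58, so ARL2BP and BRF2 exceeded their partners there and RNF215 lay in the same range as SEC14L2. RNF215 was called lower in siPRMT1 than in siCT cells in ethanol, as SEC14L2 was, and ARL2BP rose with R5020 in both siRNAs. On its own strand SEC14L2 also overlaps AC004832.3, AC004832.5 and RNU6-564P, an overlap that a strand setting does not separate. Of these only RNU6-564P was counted, at 0 to 15 counts per library. The part of shared reads in the changes of the 3 genes was not tested.

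Markers of the cell types in which these genes are best known were close to absent. Of 7 endothelial markers in the tables, TIE1 and CLDN5 had 0 counts, and the summed level of all 7 reached 0.219 CPM at most in any library. The myelin gene MAG had 7 counts over 12 libraries and MOG had 1, and the glial factor SOX10 had 1. The summed glial list ran at 348 to 770 CPM in siCT ethanol, 251 to 462 in siCT R5020, and, with siPRMT1, 281 to 291 in ethanol and 175 to 189 in R5020, nearly all of it ERBB3, which luminal cells express. Of pericyte and fibroblast markers PDGFRB peaked at 0.187 CPM, and the list's sum, set by COL1A1 and ACTA2, was 78.9 to 122 CPM in siCT ethanol, 75.2 to 92.9 in siCT R5020, and, with siPRMT1, 42.7 to 43.2 in ethanol and 37.8 to 42.1 in R5020. Leukocyte markers summed to 3.33 to 11.7 CPM, led by HLA-DRA, and were 3.33 to 7.16 in siCT ethanol, 3.72 to 4.68 in siCT R5020, and, with siPRMT1, 10.1 to 10.6 in ethanol and 9.62 to 11.7 in R5020. Luminal markers such as KRT8 and GATA3 summed to at least 5268 CPM in every library, with 5803 to 9608 in siCT ethanol, 5268 to 6896 in siCT R5020, and, with siPRMT1, 14539 to 15028 in ethanol and 10685 to 11568 in R5020. KRT18 held the most counts of the luminal list, 1855770 over 12 libraries, against 598168 for KRT8 and 295064 for GATA3, and the list includes PGR. The luminal sum was higher in siPRMT1 cells in both treatments, and its part in the changes of SEC14L2, PLLP and GPR124 was not tested.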

How the data were processed

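RNA-seq was measured in 12 T47D libraries made with the Lexogen SENSE kit from TRIzol RNA, per the labels' protocols. The authors deposited 1 table of raw gene counts per library and, per comparison, a table of log2 fold changes with p-values and adjusted p-values. Bowtie2 2.3.2.2, HTSeq 0.9.1 and DESeq2 and the build hg19 are named in the submitters' processing notes, and the sources used here give no settings, annotation or strand option. Counts carry no molecular identifiers.

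Groups came from the sample titles. Counts were filtered with filterByExpr, TMM-scaled and fitted with edgeR 4.0.16 (R 4.3.3), quasi-likelihood, 1 mean per group, 8 residual degrees of freedom, Benjamini-Hochberg over 17727 genes, called at 0.05. A gene's SE is its log2 change divided by the root of F. The fit was tested on simulated data. Alternatives used DESeq2 1.42.0 and limma 3.58.1, library totals, size factors, no filter, mitochondrial genes left out, 2-group fits, a replicate block, each replicate or the pair that stood apart left out. The within-library ratio without that pair was added after seeing the data. P-values measure the spread between cultures of 1 line. No replicates agreed within sampling noise.

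The 3 genes and all gene lists were chosen with earlier results of these data known. Named were the 3 genes, PRMT1, PGR and called neighbours. Also named were the 5 genes nearest each of the 3 by Pearson r (at least 5 CPM, clone names passed over). Apart from the additions below, named list genes were calls within the first 4 of their list in at least 1 comparison. Not all such calls were reported. For siPRMT1 against siCT in ethanol, those left out included SYNGR3 (log2 -0.95), MYADM (-1.42), EMR1 (-2.76), GPR97 (2.23), EMR2 (-1.92) and FZD4 (-0.91). Some marker genes are not reported here by name. SQLE, genes at or near 0 counts and a named gene's values in further comparisons were added after their values were seen. Promoters were taken from a RefSeq table (GRCh38.p14), which matched SEC14L2 and PLLP.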

Additional observations from a re-analysis of the deposited data

How the results depend on the processing

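No log2 change of SEC14L2, PLLP or GPR124 reversed its direction in the alternatives run, whereas for siPRMT1 in ethanol the adhesion receptors went from 2 higher and 5 lower to 4 and 3 with library totals and 6 and 3 without the pair that stood apart, and the vitamin E and squalene list from 1 and 3 to 4 and 3 without the pair. The ethanol counts of SEC14L2 and GPR124, 13 to 59 per library, limit the precision of their ethanol contrast and of the interaction. Scaling by library totals alone moved the median of all genes by 0.18 for siPRMT1 against siCT in ethanol, by -0.14 in the interaction and by -0.17 for R5020 in siPRMT1 cells. The cause of each change below was not tested, except that leaving out libraries or fitting 2 groups leaves fewer samples.

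For siPRMT1 against siCT in ethanol, SEC14L2 (edgeR main value -0.85) was at -0.70 with library totals (edgeR adjusted p = 0.265) and -0.81 with the 2 groups fitted alone (edgeR adjusted p = 0.125), no longer passing. GPR124 passed at 0.73 with library totals (edgeR adjusted p = 0.0224) and at 0.74 without the pair that stood apart (edgeR adjusted p = 0.00814). All genes called numbered 5806, against 3021 with library totals and 3324 in the 2-group fit. In R5020 4559 genes were called, against 2429 with library totals, 9866 with limma voom quality weights and 6992 without the pair. The interaction called 14 genes, against 3 with library totals, 29 without a low-count filter, 86 with DESeq2, 65 with limma voom and 140 without the pair, where GPR124 passed at -1.13 (edgeR adjusted p = 0.0404). For R5020 in siCT cells 2308 genes were called, against 3568 without the pair and 898 in the 2-group fit. In siPRMT1 cells 2725 were called, against 8179 with limma voom, 5226 without the pair and 7813 in the 2-group fit. With library totals the R5020 change in siPRMT1 cells was 3.06 for PLLP and 2.90 for GPR124, and the mean of PLLP in siPRMT1 ethanol was 2.59 CPM.

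Replicate numbers did not pair the libraries: deviations of same-numbered libraries correlated at -0.667 to 0.290 over 18 pairs, and 2 of 12 libraries correlated best with their own number. Differently numbered libraries correlated at -0.602 to 0.808 over 36 pairs. The highest was siCT ethanol 3 with siCT R5020 1, the pair that stood apart. In siCT, ethanol 2 with R5020 3 gave 0.613 and ethanol 1 with R5020 2 gave 0.565. The replicate block follows the numbers, so it does not match these pairings. With the replicate block SEC14L2 in ethanol was at -0.84 (edgeR adjusted p = 0.0558), GPR124 in R5020 at -0.65 (edgeR adjusted p = 0.0523), and the interaction called 0 genes by edgeR, with 594 at an unadjusted p under 0.05.

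Leaving out 1 library at a time gave, for SEC14L2, PLLP and GPR124 in turn, -0.99 to -0.54, -0.76 to -0.14 and 0.40 to 0.79 for siPRMT1 in ethanol, 0.03 to 0.21, -1.28 to -1.07 and -0.78 to -0.41 in R5020, and 0.68 to 1.13, -1.06 to -0.44 and -1.45 to -0.93 for the interaction. The R5020 change ran from 3.84 to 4.33, 3.68 to 4.25 and 4.01 to 4.49 in siCT cells and from 4.85 to 5.15, 3.14 to 3.29 and 3.00 to 3.20 in siPRMT1 cells. Genes called ranged from 3487 to 7827, 2332 to 6768, 0 to 32, 1550 to 3029 and 1831 to 3820 in these 5 comparisons.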
